A study of Mus musculus with 15 samples.

Results

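The genes that encode potassium, calcium and sodium channels, with their auxiliary subunits, were followed in sorted mouse islet cells. Members were taken by symbol: every gene in the deposited tables whose name begins with Kcn, with Cacn, or with Scn and a digit, without the antisense transcript Kcnq1ot1. The rule found 134 genes of the 23699 lines in each table, of which 94 were Kcn, 26 Cacn and 14 Scn genes. It used names only, and no measured value. A channel gene was tested when its mean over the libraries was at least 1 FPKM (fragments per kilobase of transcript scaled to sequencing depth) after the libraries were put on a common scale. That filter passed 34 of the 134 channel genes, and 11253 of the 22924 genes with a usable value in every library.

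The 15 libraries came from islet cells that cre recombination had made red fluorescent, sorted by aldehyde dehydrogenase (ALDH) activity with the Aldefluor substrate into ALDH- and ALDH+ cells. Control cells (FoxO 1/3/4 triple Het in the labels, although the study speaks of wild-type mice) gave 3 ALDH- and 2 ALDH+ libraries, and knockout cells (FoxO 1/3/4 triple KO) gave 5 of each. All mice were of the mixed 129JC57BL/6 strain. RIP-Cre, in which a rat insulin promoter drives recombination in insulin-producing cells, was the driver in 9 libraries, and Pdx-Cre, active in pancreatic progenitors and so in the lineages they give rise to, in 6. The Pdx-Cre libraries are control ALDH- replicate 3, control ALDH+ replicate 2, and knockout replicates 4 and 5 of both sorts. The RIP-Cre mice were 6 months old, and the age of the Pdx-Cre mice is not given in the sources used here. Nothing in the labels says which libraries came from separate animals, so p-values measure the spread between libraries, part of which may be technical.

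Summed fragments per library ran from 7490987 to 10057002. Foxo1 lay between 12.0 and 20.1 FPKM in control and between 0.0925 and 4.25 FPKM in knockout libraries, whereas Foxo3 overlapped (12.7 to 23.0 and 9.78 to 30.6 FPKM) and Foxo4 had 0 to 1.34 and 0 to 0.0669 FPKM; where the reads of Foxo3 fall relative to its deleted part cannot be read from these tables. Aldh1a3, which encodes an aldehyde dehydrogenase, ranged from 0.490 to 4.09 FPKM in ALDH- and from 22.1 to 76.9 FPKM in ALDH+ libraries. All libraries held β cell transcripts. The 3 Pdx-Cre ALDH- libraries also held summed alpha cell markers of 9699 to 36552 FPKM, against 476 to 6078 in the other 12, and 3 Pdx-Cre libraries (knockout ALDH- replicate 5, control ALDH+ replicate 2 and knockout ALDH+ replicate 5) held the acinar transcript Ctrb1 at 331 to 1223 FPKM, against at most 8.1 elsewhere.

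A β cell turns a rise in blood glucose into an electrical signal. ATP made from glucose closes the KATP channel, whose pore is Kcnj11 and whose regulatory subunit is the sulphonylurea receptor Abcc8, and the membrane depolarises. Voltage-gated calcium channels, with the L-type pores Cacna1c and Cacna1d and the P/Q-type pore Cacna1a, then open and let in the calcium that triggers exocytosis of insulin. Voltage-gated sodium channels sharpen the upstroke in mouse β cells, and delayed-rectifier, ERG-type and calcium-activated potassium channels bring the membrane back down.

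The sequences shown first are the upstream windows of the 2 channel genes that stood at the head of the comparisons below, Kcnh6 (ALDH activity) and Kcnh5 (cre driver), and of the 1 of 3 Cacna1c starts that holds GC boxes. Each runs over the 250 bases before a RefSeq transcription start, in build GRCm38.p6. Capitals mark the GC box GGGCGG and, in Kcnh6, the left arm TTCAGCACC of the element bound by the neuronal repressor REST, either strand, with overlapping matches counted separately. Kcnh6 lies at chr11:106007898-106008147 on the plus strand, Cacna1c at chr6:119108496-119108745 on the minus strand and Kcnh5 at chr12:75177333-75177582 on the minus strand.
Kcnh6: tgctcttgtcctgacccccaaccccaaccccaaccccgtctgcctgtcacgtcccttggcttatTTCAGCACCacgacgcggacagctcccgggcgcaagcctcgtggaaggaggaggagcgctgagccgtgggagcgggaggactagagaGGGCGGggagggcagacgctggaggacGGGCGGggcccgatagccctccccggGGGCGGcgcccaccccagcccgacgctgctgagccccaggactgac
Cacna1c: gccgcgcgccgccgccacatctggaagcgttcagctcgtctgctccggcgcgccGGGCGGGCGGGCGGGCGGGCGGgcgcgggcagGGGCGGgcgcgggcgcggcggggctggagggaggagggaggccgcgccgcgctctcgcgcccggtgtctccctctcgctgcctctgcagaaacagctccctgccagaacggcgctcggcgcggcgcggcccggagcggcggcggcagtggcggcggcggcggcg
Kcnh5: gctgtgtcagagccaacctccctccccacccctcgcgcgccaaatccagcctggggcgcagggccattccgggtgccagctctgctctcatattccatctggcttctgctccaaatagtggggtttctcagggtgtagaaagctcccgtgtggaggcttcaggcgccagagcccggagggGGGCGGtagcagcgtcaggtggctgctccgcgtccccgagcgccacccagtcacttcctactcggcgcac

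A window was at hand for 98 of the 134 channel genes, 25 of them among the 34 tested, with 133 starts in all. The FoxO core TGTTTAC, on either strand, was in 0 of these 133 windows and in 3.17% of all 32851 windows of the same length. The GC box was in 57 of the 133 (42.9%), against 32.7% of all windows, and the median GC content was 58.0% against 52.4%. The REST arm was in 1 of the 133, that of Kcnh6, and in 0.301% of all windows, a motif searched after the values were seen. A match describes the letters only, and a missing match says nothing of what binds elsewhere.

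A few channel genes made up most of the channel transcripts in these sorted cells. The means below include the Pdx-Cre libraries that also held transcripts of other islet cells or of acinar cells. The 3 highest, Kcnk16, Kcnip1 and Kcnj11, held 40.8% of the summed mean FPKM of all 134 genes, and the 10 highest held 69.6%. Kcnk16, the two-pore potassium channel TALK-1, which carries a background current in β cells, had a mean of 92.4 ± 60.4 FPKM (SD, n = 15). Kcnip1, a calcium-binding partner of Kv4 channels, had 86.9 ± 21.9, and Kcnj11 31.1 ± 5.20 FPKM. Their spreads differ: Kcnj11 kept within 22.2 and 40.5 FPKM in every library, whereas Kcnk16 ran from 13.8 to 227 FPKM. The means of Kcnk16 and Kcnip1 lie within 1 SD of each other, and so do those of Kcnj11 and the next gene, Kcnma1 (30.3 ± 6.61), the pore of the large-conductance calcium-activated channel.

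**Figure D1:**
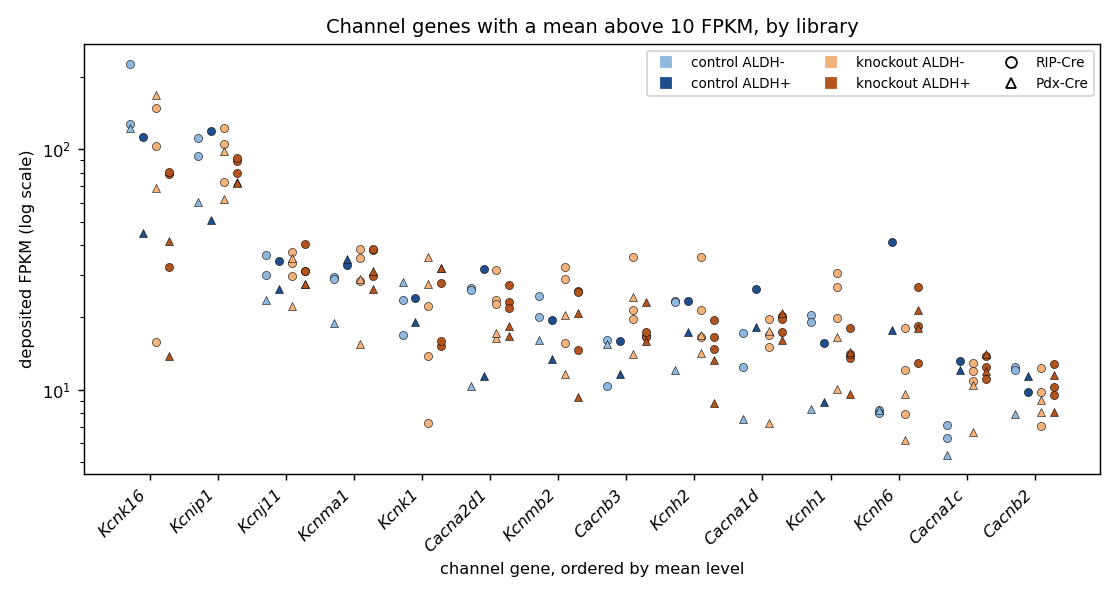
Deposited FPKM (log axis) of 14 channel genes with a mean above 10, one point per library, coloured by genotype and ALDH sort, with circles for RIP-Cre and triangles for Pdx-Cre. Kcnj11 stays between 22.2 and 40.5 FPKM, and Kcnk16 spreads from 13.8 to 227 FPKM.

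Voltage-gated potassium pores were the largest group, with 11 of 40 genes tested. The ERG-type channels Kcnh2 (18.4 FPKM, range 8.78 to 35.5, n = 15) and Kcnh6 (15.7 ± 9.29) and the EAG channel Kcnh1 (16.4 ± 6.42) led it, and their SDs overlap. Kcnq1 had 0 to 1.21 FPKM and Kcnd2 0 to 0.700 FPKM, and neither reached the filter. Among calcium pores 3 of 10 were tested, Cacna1d (16.8 ± 4.89), Cacna1c (10.7 ± 2.89) and Cacna1a (8.29 ± 3.12). The other pores had low values: the R-type Cacna1e was listed at 0 in 12 libraries and had at most 0.370 FPKM, and the N-type Cacna1b and the T-type Cacna1g and Cacna1h had at most 1.37, 0.723 and 0.882 FPKM. Calcium auxiliary subunits were led by the α2δ subunit Cacna2d1 (21.6 ± 6.50) and the β subunits Cacnb3 (18.3 ± 6.17) and Cacnb2.

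Sodium channels were low. Scn9a, Scn8a and Scn3a were the 3 of 10 sodium pores tested, with library ranges of 2.27 to 7.89, 1.21 to 7.24 and 0.73 to 8.38 FPKM, and 0 of the 4 β subunits passed the filter. Of the 134 channel genes, 28 were listed at 0 in all 15 libraries, among them the shaker-type pores Kcna1, Kcna3 and Kcna4, the skeletal muscle pore Cacna1s and the sensory neuron pores Scn10a and Scn11a. Another 72 had a value above 0 somewhere but a mean under the filter. The lowest gene inside it was Kcnj12 (mean 1.51 FPKM on the common scale) and the highest outside was Kcnip3 (0.936). A value at 0 is what the tables list, and it does not show that a gene is silent.

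The first question was how ALDH+ cells, which the study took as failing β cells, differed from ALDH- cells. Averaged over both genotypes, 3 channel genes were higher in ALDH+ cells and 0 were lower: the ERG-type potassium channel Kcnh6 and the calcium pores Cacna1a and Cacna1c. In the linear model (limma on log2(FPKM + 1), Benjamini-Hochberg adjusted over all genes), 3 of 34 channel genes passed, against 5.99% of all genes in either direction and 2.22% in the higher direction. At an unadjusted p under 0.05 there were 12 channel genes, all higher in ALDH+ cells, against 8.89% of all genes. The median log2 fold change of the 34 was 0.27, against -0.02 over all genes, and 26 of 34 lay above 0, against 47.7% of all genes. Because these are sorted pools, fewer cells with a transcript and less transcript per cell cannot be told apart.

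Kcnh6 encodes ERG2, a voltage-gated potassium channel of the same family as the cardiac channel Kcnh2. Its locus spans 105869516 to 105895378 on chromosome 11 in the mm9 build of the deposited tables, and 165 to 1036 fragments per library stood behind its values. Control ALDH- libraries had 8.25, 8.00 and 8.25 FPKM, and control ALDH+ libraries 41.2 and 17.7 FPKM. Knockout ALDH- libraries had 12.1, 7.90, 18.0, 9.62 and 6.17 FPKM, and knockout ALDH+ libraries 18.5, 12.9, 26.7, 18.1 and 21.4 FPKM. The control sorts did not overlap, the knockout sorts overlapped through ALDH- replicate 3 and ALDH+ replicate 2, and 5 of 7 ALDH+ libraries lay above every ALDH- library. The fold was 2.38 (log2 1.25 ± 0.23, SE; adjusted p = 0.00648).

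Cacna1a and Cacna1c showed smaller differences. Cacna1a (chromosome 8, 86939262 to 87164148, mm9) had 4.86, 4.64 and 4.95 FPKM in control ALDH- and 14.2 and 11.8 FPKM in control ALDH+ libraries. In knockout cells its values were 7.20, 5.94, 8.27, 10.1 and 5.43 FPKM in ALDH- and 8.08, 6.31, 13.3, 10.6 and 8.74 FPKM in ALDH+ libraries, which overlap. Averaged over genotypes it was 1.71-fold higher in ALDH+ cells (log2 0.77 ± 0.19, adjusted p = 0.0253).

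Cacna1c (chromosome 6, 118542313 to 119146427, mm9) had 6.32, 7.16 and 5.37 FPKM in control ALDH- libraries, and 13.1 and 12.1 FPKM in control ALDH+ libraries. Its knockout values were 10.9, 12.9, 12.0, 10.4 and 6.67 FPKM in ALDH- and 12.4, 11.03, 13.8, 11.9 and 14.1 FPKM in ALDH+ libraries. The knockout sorts overlap, with 3 of 7 ALDH+ libraries above every ALDH- library. The fold was 1.51 (log2 0.59 ± 0.15, adjusted p = 0.0322). The loci of Cacna1c and Cacna1d overlap those of Dcp1b (mean 6.96 FPKM) and Dcp1a (10.4 FPKM) in the tables, so reads may be shared between neighbours.

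**Figure D2:**
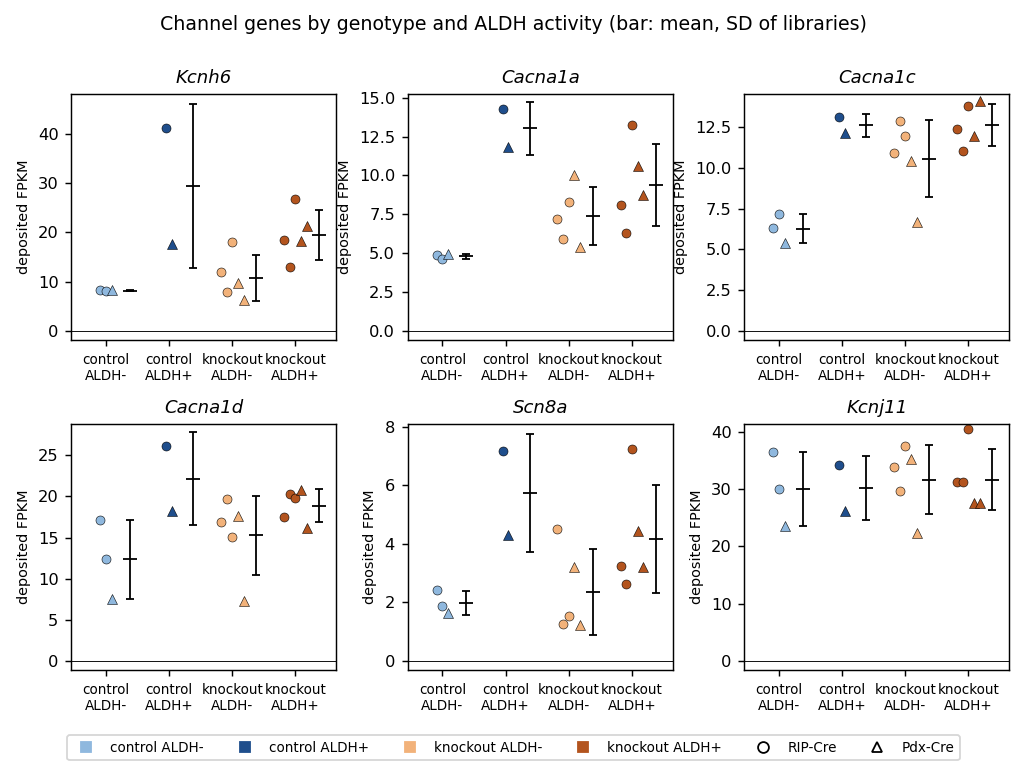
Deposited FPKM of 6 channel genes in the 4 groups, one point per library (circles RIP-Cre, triangles Pdx-Cre), with the mean and SD of the libraries beside each group. Kcnh6 is at 8.00 to 8.25 FPKM in control ALDH- and at 17.7 and 41.2 FPKM in control ALDH+ cells, whereas Kcnj11 is at 22.2 to 40.5 FPKM with all 4 groups overlapping.

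The third calcium pore, the L-type Cacna1d, fell just short, with a log2 fold change of 0.62 ± 0.18 (adjusted p = 0.0546). So did the sodium pore Scn8a (0.92 ± 0.27, adjusted p = 0.0613), the potassium β subunit Kcnab3 (0.86 ± 0.26, adjusted p = 0.0658) and Kcnmb1 (0.99 ± 0.33, adjusted p = 0.0885). Kcnmb1, a subunit of the Kcnma1 channel, overlaps the locus of the far more abundant Kcnip1 in the tables, so its values are uncertain.

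The KATP pore Kcnj11 had no detectable difference. Its log2 fold change was 0.03, with a 95% interval of -0.23 to 0.29 (adjusted p = 0.930). For Kcna2, the Shaker pore Kv1.2, the interval was 0.11 to 1.08, not past the threshold after adjustment (adjusted p = 0.142). In the calcium group the 3 tested pores had log2 fold changes of 0.59 to 0.77, and the 4 auxiliary subunits of -0.16 to 0.08, with 0 of 4 past the threshold. All 3 sodium pores were above 0 (median 0.54), with 0 of 3 past the threshold.

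Kcnk16 had the lowest fold change of the 34 (log2 -0.97 ± 0.48, adjusted p = 0.269). Control ALDH- libraries had 128, 227 and 122 FPKM and control ALDH+ libraries 113 and 44.7 FPKM. Knockout ALDH- libraries had 148, 15.8, 104, 168 and 69.3 FPKM, and knockout ALDH+ libraries 79.0, 80.5, 32.4, 41.5 and 13.8 FPKM. The second knockout ALDH- library lay far below the others of its group, and without it Kcnk16 passed the threshold as lower in ALDH+ cells (log2 -1.25, adjusted p = 0.0308).

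**Figure D3:**
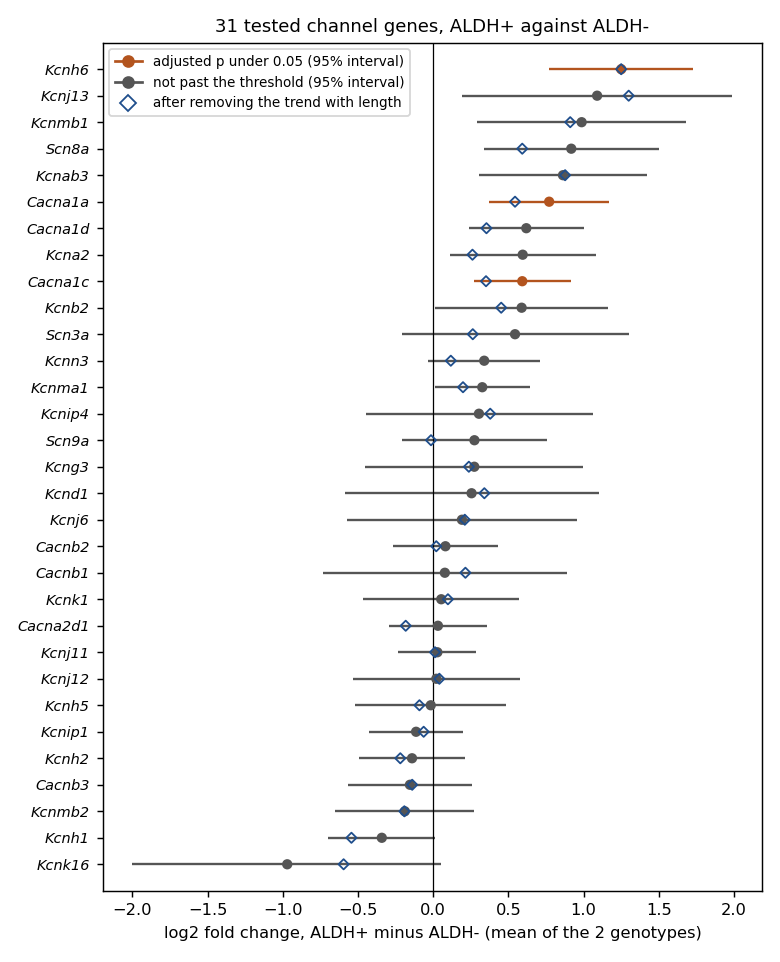
Log2 fold change of ALDH+ against ALDH- cells for 31 of the 34 tested channel genes, with 95% intervals, averaged over the 2 genotypes. The orange points (Kcnh6, Cacna1a and Cacna1c) passed an adjusted p of 0.05, and the open diamonds give the same change after a trend with transcript length was removed, for which Kcnh6 stays at 1.25 and Cacna1a falls to 0.54.

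Transcript length and nuclear RNA moved with this comparison. Over 11172 genes the fold change rose with transcript length (Spearman's rho 0.41, a description, since genes share the libraries), and the tested channel genes were longer than all tested genes (median 4270 against 2784 bases). After a trend with length was removed in each library, 1 channel gene, Kcnh6, stayed past the threshold (log2 1.25, adjusted p = 0.0123), and Cacna1a and Cacna1c dropped to 0.54 and 0.35 (adjusted p = 0.121 and 0.244). In that fit the median of the 34 was 0.20, against -0.01 over all genes, and 23 of 34 lay above 0, against 48.7% of all genes. Malat1, an RNA that stays in the nucleus, had 230 to 1420 FPKM in ALDH- and 1801 to 4371 FPKM in ALDH+ libraries, without overlap. The part of length and of nuclear RNA in the higher values of the long calcium and sodium pores was not tested.

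**Figure D4:**
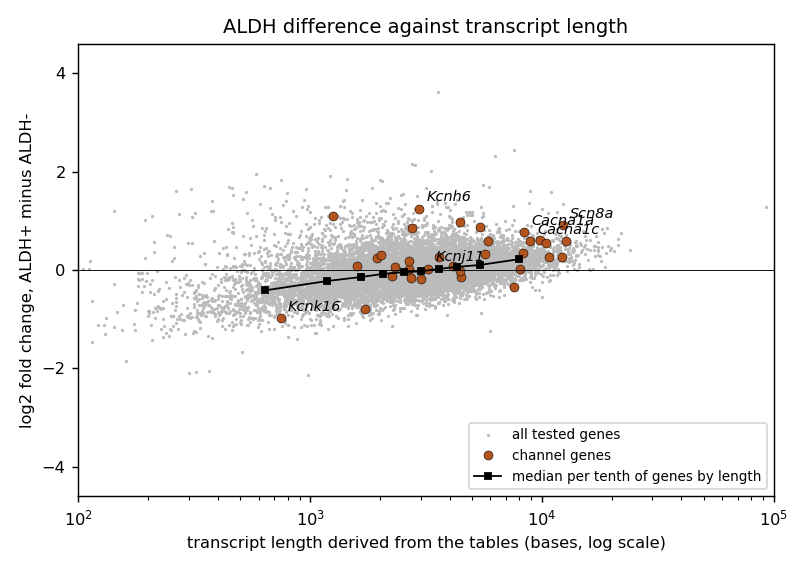
Log2 fold change of ALDH+ against ALDH- cells plotted against transcript length (log axis) for all tested genes (grey) and the tested channel genes (orange), with the median of each of 10 equal groups of genes by length (black line), and 8 of 11172 genes beyond the axis. The line climbs with length, Kcnh6 lies far above it, and Cacna1a and Cacna1c lie among long genes.

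These calls rested on few libraries. Without control ALDH+ replicate 1, which held the highest Kcnh6 value, 0 channel genes and 3 of all genes passed, and the Kcnh6 difference was 1.00 on the log2 scale (adjusted p = 0.122). Leaving out control ALDH- replicate 1 or 2, or control ALDH+ replicate 2, left 1 channel gene, Kcnh6, and leaving out control ALDH- replicate 3 left Kcnh6 and brought in Kcnmb1, without Cacna1a and Cacna1c, whereas leaving out knockout ALDH- replicate 2 or 4 raised the count to 5 or 6, and Cacna1c also missed the threshold without knockout ALDH+ replicate 5. Over all 15 libraries 0 channel genes had sorts without overlap, against 0.418% (higher) and 0.293% (lower) of all genes. In the RIP-Cre libraries alone Kcnh6 passed (log2 1.41, adjusted p = 0.0458), and Cacna1a and Cacna1c did not (0.85 and 0.47, adjusted p = 0.137 and 0.252). Within RIP-Cre the sorts did not overlap for 2 channel genes that were higher in ALDH+ cells, Kcnab3 among them (2.51% of all genes), and for Kcnh1, lower (3.07%). In the Pdx-Cre libraries alone, 6 channel genes were higher in every ALDH+ than in every ALDH- library (Cacna1c, Kcnab3, Kcnb2, Kcnh6, Kcnj13 and Scn8a), against 7.85% of all genes, and Kcnk16 was lower in every one, against 8.76%. There Kcnh6 had 6.17 to 9.62 against 17.7 to 21.4 FPKM. The locus of Kcnj13 overlaps that of Gigyf2 (mean 18.6 FPKM), so its reads may be shared with that neighbour. Alpha cell markers also differed between those sorts, with summed levels of 9699 to 36552 FPKM in Pdx-Cre ALDH- and 576 to 6078 FPKM in Pdx-Cre ALDH+ libraries, and their part was not tested.

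The difference within control cells was taken from the same fit of all 15 libraries, so its spread rests on the knockout libraries too. There Kcnh6 was 3.11-fold higher in ALDH+ cells (log2 1.64 ± 0.37, adjusted p = 0.0450). It was the 1 channel gene of 34 to pass, against 1.22% of all genes and 0.462% in the higher direction. Cacna1a (1.23 ± 0.31, adjusted p = 0.0662) and Cacna1c (0.91 ± 0.25, adjusted p = 0.0901) came next, and 9 channel genes were higher at an unadjusted p under 0.05, against 5.64% of all genes. All 3 tested calcium pores had no overlap between the 3 ALDH- and 2 ALDH+ libraries. In all 14 channel genes were higher in both control ALDH+ libraries than in every control ALDH- library, against 14.1% of all genes, and 1, Kcnk16, was lower in both, against 17.1%. Kcnh6 no longer passed when any 1 of 8 libraries was left out: control ALDH- replicate 1, 2 or 3, control ALDH+ replicate 1, knockout ALDH- replicate 1, or knockout ALDH+ replicate 1, 4 or 5. Over the 15 omissions its limma adjusted p ran from 0.0327 to 0.721, the highest without control ALDH+ replicate 1 (log2 1.12), while 2 channel genes passed without knockout ALDH+ replicate 3. In a fit of the control libraries only, 2 of 36 channel genes passed, Kcnh6 and Cacna1a, both higher. In that fit 449 of all 11278 genes passed, 132 of them higher.

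In knockout cells 0 of 34 channel genes passed, where 0.0178% of all genes did, with 9 channel genes at an unadjusted p under 0.05 (5 higher and 4 lower, against 5.74% and 7.34% of all genes). The 3 with the smallest p were Kcnh6 (log2 0.87 ± 0.26, adjusted p = 0.202), Kcnab3 (0.92 ± 0.30, adjusted p = 0.223) and Kcnd1, a Kv4-type A-current pore (-1.17 ± 0.45, adjusted p = 0.282). Cacna1a and Cacna1c, which passed in the average of the genotypes, had 0.32 ± 0.21 (adjusted p = 0.558) and 0.27 ± 0.17 (adjusted p = 0.532) in knockout cells. The control and knockout differences were then compared directly. In that test of genotype by ALDH activity 0 channel genes passed, as did 0% of all genes, with 2 at an unadjusted p under 0.05, against 4.23% of all genes. These were Kcnd1 (difference of log2 fold changes -2.85 ± 0.80, adjusted p = 0.998) and Cacna1a (-0.91 ± 0.38, adjusted p = 0.998), and Cacna1c came next (-0.64 ± 0.31). A difference between genotypes was therefore not detectable in this design with 2 control ALDH+ libraries.

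Loss of the FoxO proteins was the second question. In ALDH- cells 0 of 34 channel genes passed between knockout and control, against 0.0178% of all genes, and 3 were higher at an unadjusted p under 0.05, against 2.74%. They were Cacna1c (log2 0.65 ± 0.20, adjusted p = 0.679), Kcnd1 (1.44 ± 0.52, adjusted p = 0.798) and the calcium channel β subunit Cacnb3 (0.64 ± 0.26, adjusted p = 0.812). For Kcnd1 the control libraries had 2.46, 1.70 and 0.619 FPKM and the knockout libraries 3.74, 18.1, 5.95, 3.32 and 3.79 FPKM, with the second knockout library well above the rest. The groups did not overlap, with knockout cells higher, for 3 channel genes (Cacna1a, Cacna1c and Kcnd1), against 1.5% of all genes. Kcnd1 rests on as few as 3 fragments in 1 of the 15 libraries.

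In ALDH+ cells the same comparison gave 0 of 34, against 0% of all genes, with 3 at an unadjusted p under 0.05, all lower in knockout cells, against 2.55% of all genes. These were Kcng3, a silent voltage-gated subunit (-1.36 ± 0.51, adjusted p = 0.671), the G-protein-gated inward rectifier Kcnj6 (-1.36 ± 0.54, adjusted p = 0.696) and Kcnd1 (-1.40 ± 0.60, adjusted p = 0.739). Kcnj6 had 15.5 and 13.7 FPKM in control and 9.31, 2.64, 2.13, 6.04 and 6.34 FPKM in knockout ALDH+ libraries, without overlap. The same held for Kcng3 and Kcnd1, 3 channel genes in all, against 3.99% of all genes in that direction. In the other direction 1 channel gene, Cacnb3, was higher in every knockout than in every control ALDH+ library. Its log2 fold change was 0.39 ± 0.29 (adjusted p = 0.892), and the share of all genes in that direction is not given here. The ALDH- and ALDH+ comparisons contrast different libraries, but both come from the same fit, with a shared spread and cre term, so they are not independent. For Kcnj11 the 95% interval of knockout against control was -0.25 to 0.43 in ALDH- and -0.32 to 0.46 in ALDH+ cells, and for Cacna1d it was -0.20 to 0.81 and -0.79 to 0.37.

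The cre driver itself was compared next. In Pdx-Cre libraries 8 channel genes were lower and 0 were higher than in RIP-Cre libraries, 8 of 34 against 9.73% of all genes in either direction and 4.05% in the lower direction. Potassium channel genes made up 7 of them: the EAG and ERG pores Kcnh5, Kcnh1 and Kcnh2, the Shaker pore Kcna2, the inward rectifier Kcnj12, the small-conductance calcium-activated channel Kcnn3 and the β subunit Kcnab3. The eighth was the calcium channel subunit Cacna2d1. The count of 8 includes Kcnh5 and Kcnj12, which passed the filter only through the RIP-Cre libraries, where they are high. At an unadjusted p under 0.05, 15 were lower, against 12.1% of all genes. The median log2 fold change of the 34 was -0.28, against -0.01 over all genes. This one-sided picture depended in part on the filter. Without it 106 channel genes were fitted, and 7 passed as lower and 1 as higher. Of all 16928 genes in that fit, 386 passed as lower and 513 as higher. The median of the 106 was 0.006, with 55 above 0 and 51 below. Over 11172 genes the fold change fell with transcript length (Spearman's rho -0.28). With a trend with length removed, the median of the 34 was -0.19. In that fit 7 channel genes passed, all lower, as did 907 of all genes. Kcnh2 and Kcnn3 no longer passed, and Kcnip1 did. The part of length in the driver difference was not tested. The driver, the mouse line it came with and the time of recombination cannot be told apart.

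Kcnh5 stood first. The 9 RIP-Cre libraries had 1.79 to 4.62 FPKM (median 3.20) and the 6 Pdx-Cre libraries 0 to 0.270 FPKM (median 0.189), without overlap, on 0 to 188 fragments per library. On the log2(FPKM + 1) scale, which understates the change of a gene this low, it was 3.46-fold lower in Pdx-Cre libraries (log2 -1.79 ± 0.23, adjusted p = 0.000182). Kcnj12 had 1.504 to 3.15 FPKM (median 2.14) against 0 to 0.940 (median 0.327), and was 2.37-fold lower (log2 -1.25 ± 0.25, adjusted p = 0.00547). Cacna2d1, an order of magnitude more abundant, had 21.9 to 31.8 FPKM (median 26.0) against 10.3 to 18.4 (median 16.6), and was 1.66-fold lower (log2 -0.73 ± 0.15, adjusted p = 0.00583). Kcnh5 and Kcnj12 were below 1 FPKM in every Pdx-Cre library and so entered the test through the RIP-Cre libraries, where they are high, which favours a difference in this direction. Their lack of overlap is therefore not set against a share of all genes. Cacna2d1, at 10.3 FPKM or more in every library, also had every Pdx-Cre library below every RIP-Cre library, against 0.906% of all genes in that direction.

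The other 5 overlapped. Kcna2 had 2.20 to 7.90 FPKM in RIP-Cre and 0.492 to 2.22 FPKM in Pdx-Cre libraries (log2 -1.14 ± 0.22, adjusted p = 0.00417), meeting only at the top of the Pdx-Cre range. Kcnh1 stood at log2 -0.70 ± 0.16 (adjusted p = 0.0120), Kcnn3 of -0.70 ± 0.17 (adjusted p = 0.0144), Kcnh2 of -0.56 ± 0.16 (adjusted p = 0.0328) and Kcnab3 of -0.88 ± 0.25 (adjusted p = 0.0356). Kcnip1 (-0.46, adjusted p = 0.0526) and Kcnk1 (0.73, adjusted p = 0.0571), the latter the 1 of 34 with a positive change at an unadjusted p under 0.05, fell just outside. Of the genes behind the ALDH result, Kcnh6, Cacna1a and Cacna1c had changes of -0.28, 0.07 and -0.16 with the driver, none past the threshold.

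**Figure D5:**
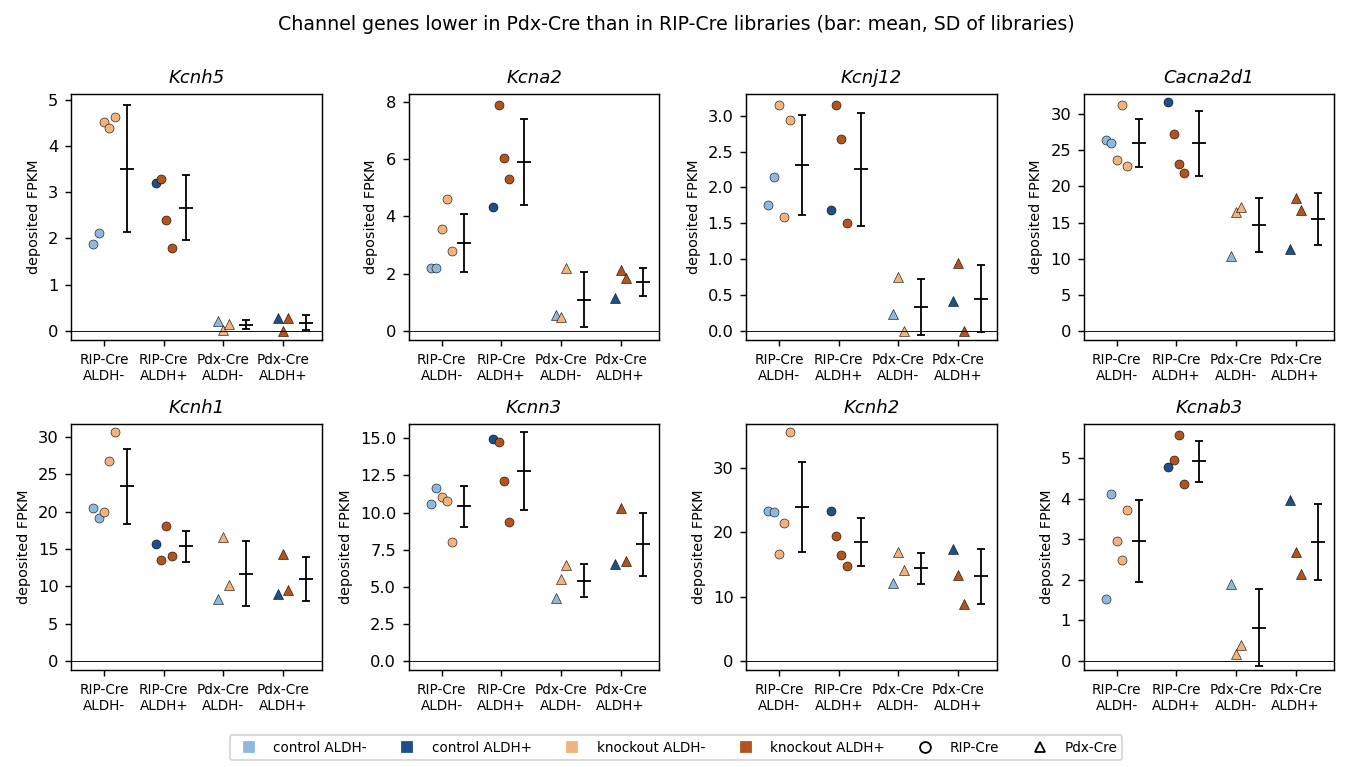
Deposited FPKM of the 8 channel genes that were lower in Pdx-Cre libraries (triangles) than in RIP-Cre libraries (circles), split by ALDH sort and coloured by genotype, with the mean and SD of the libraries. Kcnh5 lies at 1.79 to 4.62 FPKM in RIP-Cre and at 0 to 0.270 FPKM in Pdx-Cre libraries.

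Some β cell markers and markers of other cells moved with the driver. The glucose transporter Slc2a2 had 99.95 to 227 FPKM in RIP-Cre and 8.61 to 24.6 FPKM in Pdx-Cre libraries, and Ucn3, a marker of mature β cells, 418 to 795 against 69.9 to 302. Nkx6-1 did not overlap either (57.2 to 97.1 against 25.8 to 41.1). Pdx1 (45.2 to 96.1 against 19.7 to 53.4) and Mafa (2.32 to 13.9 against 0.434 to 2.51) overlapped. So did G6pc2 (1096 to 1878 against 313 to 1725) and Iapp (33196 to 125094 against 69597 to 114338). Summed over 3 alpha cell markers (Gcg, Irx2 and Ttr), RIP-Cre libraries had 476 to 1420 FPKM, Pdx-Cre ALDH- libraries 9699 to 36552 and Pdx-Cre ALDH+ libraries 576 to 6078, and summed delta markers were 414 to 1298, 8255 to 13646 and 752 to 2990. None of these markers was at 0 in every library. Summed pancreatic polypeptide cell markers reached 18184 FPKM in Pdx-Cre ALDH- libraries and at most 2175 in RIP-Cre libraries, and acinar markers reached 371 FPKM in Pdx-Cre ALDH-, 1383 in Pdx-Cre ALDH+ and 5.14 in RIP-Cre libraries. Duct markers summed to 212 to 823 FPKM and immune markers to 19.7 to 148, the highest of both in Pdx-Cre libraries, and the β cell markers, without Ins1 and Ins2, which had no usable value, to 35369 to 127931. Endothelial and mesenchymal markers summed to at most 1.48 and 0.737 FPKM in any library, and of the neuron and glia list Stmn2 and Sox10 were at 0 throughout. The part of other islet cells in the lower channel values was not tested.

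Without the 3 libraries that held acinar transcripts, all of them Pdx-Cre, 2 channel genes remained past the threshold, Kcnh5 (log2 -1.84, adjusted p = 0.00814) and Kcna2 (-1.29, adjusted p = 0.0317), while Kcnj12 and Cacna2d1 had -0.99 and -0.70 (adjusted p = 0.123 and 0.0871). Over the same step the count of all genes went from 1095 to 132. With any single library left out, 6 to 8 channel genes passed, and Kcnh5, Kcna2, Kcnj12, Cacna2d1 and Kcnh1 were among them each time. Kcnab3 missed the threshold in 9 of the 15 omissions, Kcnh2 in 8 and Kcnn3 in 1, without control ALDH- replicate 3. In some omissions Kcnip1 (lower) or Kcnk1 (higher) passed in their place. Whether ALDH activity acted differently under the 2 drivers was tested directly: 0 channel genes passed, as did 0% of all genes, with 1 channel gene at an unadjusted p under 0.05, against 4.54% of all genes (Kcnd1, 1.51 ± 0.68, adjusted p = 0.994). Kcnk16 (-1.66 ± 0.85) and Kcnh1 came next, also with an adjusted p = 0.994.

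Genes beside the channel families that serve the same electrical and calcium signal were counted from a list of 40 (KATP regulatory subunits, HCN and TRP channels, the sodium leak channel Nalcn, ryanodine and IP3 receptors, store-operated entry, calcium pumps and exchangers, and chloride channels), of which 28 were tested. With ALDH activity 0 of 28 passed in either direction (5.99% of all genes did), with a median log2 fold change of 0.06. With the driver 4 of 28 passed (9.73% of all genes, 4.05% lower), all lower in Pdx-Cre libraries: Atp2a2, the SERCA2 calcium pump (-0.50 ± 0.12, adjusted p = 0.0183), the pacemaker channel Hcn4 (-0.77 ± 0.21, adjusted p = 0.0309), the calcium-activated cation channel Trpm5 (-0.82 ± 0.23, adjusted p = 0.0325) and Nalcn (-0.76 ± 0.22, adjusted p = 0.0394). Abcc8, the partner of Kcnj11, had differences of 0.30 ± 0.11 log2 with ALDH activity (adjusted p = 0.118) and of -0.23 ± 0.11 with the driver (adjusted p = 0.184).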

How the data were processed

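RNA of 15 sorted cell libraries was measured by poly-A RNA-seq. The authors deposited 1 table per library with FPKM values and confidence bounds in Cufflinks layout. The submitters' processing notes name bcl2fastq 1.8.4, TopHat2 2.0.4 and mm9. The quantifier's version is not given in the sources used here. Symbols listed more than once (248) and lines that failed or were too deep in any library (63) were left out, none of them a channel gene. Fragment numbers were recovered from the width of each deposited interval and cover counting error only.

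Libraries were brought to a common scale by TMM without weights (trimming 30% of M and 5% of A per side). The linear model on log2(FPKM + 1), for 11253 genes with a mean of at least 1, had 4 groups and cre driver, and used limma 3.58.1 (trended prior, R 4.3.3). Tests were two-sided, with Benjamini-Hochberg adjustment over all genes within each of 8 comparisons. The procedure was tested on simulated data. Named genes were known β cell channels, the 10 most abundant, those past the threshold, and the 3 with the smallest p where fewer than 3 passed. Kcna2 with ALDH activity, the genes that fell just short, and those listed at 0 were named after their values were seen. The members and lists were chosen with earlier results of these data known. Some genes are not reported here singly, in figures or in marker sums. Promoter sequences are from RefSeq (GRCm38.p6), matched by symbol.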

Additional observations from a re-analysis of the deposited data

Results flagged for a closer look

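In the 2 groups of 5 libraries, 62 sets of values (31 channel genes in knockout ALDH- and in knockout ALDH+ cells) were searched for 1 library far from the other 4, on the log2 scale. Such a library was found in 4 sets, all in knockout ALDH+ cells, where chance alone flags about 1 in 20. Cacnb3 had 23.2 FPKM in replicate 4, where the highest of the others had 17.4, and Cacnb1, another calcium channel β subunit, had 3.97 FPKM in the same library, against 0.797 to 1.10. Scn9a had 4.06 FPKM in replicate 2, against 5.82 to 6.71. Kcnb2, a voltage-gated potassium pore, had 1.46 FPKM in replicate 5, against 3.11 to 4.04. None of these genes passed the threshold in any comparison.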

How the results depend on the processing

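Counts of channel genes past the threshold moved as follows. For ALDH activity averaged over genotypes (3), 1 passed in RIP-Cre libraries only, with the trend with length removed, with a replicate block, with the block within cre driver, and without the 3 libraries with acinar transcripts, 2 with no cre driver in the model, 4 with library weights, and 0 to 6 with 1 library left out. For ALDH activity in control cells (1), 0 passed with no filter, quantile normalization, no cre driver in the model, RIP-Cre libraries only, the length trend removed, and either block, 2 in a fit of the compared groups only, 4 with library weights, and 0 to 2 with 1 library left out. For the driver (8), 2 passed without the 3 acinar libraries, 7 with the length trend removed, 9 with no rescaling or with quantile normalization, and 6 to 8 with 1 library left out. With no filter the count for the driver was again 8, but 7 were lower and 1 was higher. The other 5 counts stayed at 0 under every alternative run. The block within driver and the acinar alternative were chosen after seeing the data.

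Of 1100 values of single genes under the alternatives, 20 changed sign, all in ALDH activity averaged over genotypes. None of these was of a gene past the threshold in that comparison of the reported fit. Kcnj11 had -0.0457 with the replicate block by number and -0.00429 with the block within driver. With the length trend removed Scn9a had -0.0149 and Cacna2d1 -0.183, and Cacna2d1 had -0.0294 with no cre driver and -0.212 with the block. Kcnip1 had 0.125 with quantile normalization, 0.0281 in RIP-Cre libraries only and 0.0551 without the acinar libraries, and Cacnb2 -0.0551 in RIP-Cre libraries only. With 1 library left out, log2 fold changes ran from -0.00988 to 0.0716 for Kcnj11, -0.327 to 0.081 for Kcnip1, -0.159 to 0.205 for Cacna2d1, -0.0209 to 0.194 for Cacnb2 and -0.254 to 0.334 for Kcnk1.

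The block joined equal replicate numbers within genotype. Deviations from group means correlated at 0.24 and -0.24 in the 2 control pairs and at 0.09 to 0.41 in the 5 knockout pairs, so the numbers were not taken to pair the libraries, though each knockout library correlated best with its own number. Same-numbered knockout libraries share a driver. In control pair 2 they do not, since ALDH- replicate 2 is RIP-Cre and ALDH+ replicate 2 is Pdx-Cre. In that pair the block by number therefore mixes ALDH activity with driver. With the driver removed the correlations of all pairs were -0.04 to 0.07. With the block Cacna1a had 0.81 (adjusted p = 0.0773) and Cacna1c 0.56 (0.188), and with the block within driver 0.75 (0.0646) and 0.61 (0.121), so Kcnh6 was the channel gene that passed. Under the block by number 22 of all genes passed for ALDH activity, against 674. Where a library or group was left out, fewer samples were fitted, and for the other alternatives the cause was not tested. Low channel genes rest on few fragments, and 100 of 134 were not tested.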
